A study of Mus musculus with 11 samples.

Results

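The genes described are 10 members of the bone morphogenetic protein (BMP) pathway, taken by symbol from the 28692 genes of the count matrices: the ligands Bmp2, Bmp3, Bmp4, Bmp6 and Bmp7, the type I receptor Bmpr1b, the secreted antagonist Sostdc1 and the target genes Id1, Id2 and Id3. Single-cell RNA-seq was performed on kidneys of male C57Bl/6 mice, aged 10 weeks, that were left untouched (control), underwent unilateral ischaemia-reperfusion (UIR, a clamp on the left renal pedicle) or unilateral ureteral obstruction (UUO, ligation of the left ureter). Injured kidneys were taken on day 28, and the data comprised 5 control, 3 UIR and 3 UUO libraries. The controls carried the names Ctrl, N1, N2, AN1 and AN2, and each injury model had an unnumbered library, a library 1 and a library 2. The labels name no batch. The letters of the control names were read here as possible batches, and any such batch cannot be told apart from injury. The study's methods give as many mice as libraries, but no label ties a library to a mouse, and p-values measure the spread between these libraries. The labels name no genetic change in any group.

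BMPs are secreted ligands of the TGF-β superfamily. They bind type I and type II receptors on the cell surface, which phosphorylate SMAD1, SMAD5 and SMAD9, and these enter the nucleus with SMAD4 and switch on Id genes. Id proteins lack a DNA-binding domain and keep basic helix-loop-helix transcription factors from binding DNA, and Id transcription is widely read as an output of BMP signalling although other signals also change it. In the kidney, Bmp7 is needed for nephron formation and is made by tubules and podocytes of the adult organ. Sostdc1, also called USAG-1, is a secreted protein that binds BMPs and is made by distal parts of the nephron.

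Counts of unique molecular identifiers (UMIs, 1 per captured transcript) were summed over the cells of a class in a library to form a pool, and a level is given in counts per 1000000 UMIs of that pool (CPM). Since the libraries read the 3′ end of transcripts, levels were not divided by gene length. Libraries held 49503312 to 117043590 UMIs. Control libraries gave 1858 to 2507 cells, UIR libraries 3994 to 7440 and UUO libraries 3786 to 5263. The cells fell into 11 tubular, stromal and endothelial classes named from markers, among them the failed-repair tubular epithelial cells (frTEC) that the study describes after injury. The libraries stood apart in the share of barcodes removed for over 30% mitochondrial UMIs, which was 56.9% to 78.6% in controls but 23.5% to 36.7% after UIR and 3.17% to 7.68% after UUO, and its part in the results was not tested. At most 18 cell barcodes were shared by a pair of libraries, where 6.01 would be shared at random. Per-library values are listed in the order Ctrl, N1, N2, AN1 and AN2 for controls, and unnumbered, 1 and 2 for each injury model.

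In control kidneys the members were laid out along the nephron and the vessels. The orders given are among the 11 classes, which leave out podocytes and immune cells. Sostdc1 was highest in the loop of Henle at 1148 ± 131 CPM (SD, n = 5), followed by the connecting tubule at 387 ± 55.5 and the distal tubule at 336 ± 59.3, and the ranges of the latter pair overlapped. Bmp7 was highest in principal cells of the collecting duct at 48.8 ± 11.5 CPM and decreased through the loop of Henle, connecting tubule, intercalated cells and distal tubule to 14.97 ± 1.58 in the proximal tubule (PT), with each neighbour in that order overlapping the next. Control podocytes, outside these classes, held more, at 51.95 to 84.57 CPM. Bmpr1b was found in principal cells at 80.2 ± 22.7, intercalated cells at 77.5 ± 23.5 and the connecting tubule at 40.6 ± 12.2 CPM, and in none of the other classes among the 11 did its mean exceed 2.58, while control podocytes held 0 to 11.3 CPM.

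Bmp4 lay between 31.9 and 91.2 CPM in the loop of Henle, frTEC, arterial endothelium, stroma, PT and glomerular endothelium. Bmp2 was an arterial gene at 105 ± 39.4 CPM, and stroma, frTEC and glomerular endothelium followed at 25.7 to 34.9. Bmp3 was highest in frTEC at 75.3 CPM (27.0 to 104, n = 3). Control frTEC pools differed in markers from injured ones, with Vcam1 at 6.76 to 257 CPM against 425 to 877 after injury. Dcdc2a stood at 132 to 190 against 370 to 436, and Cryab at 4984 to 5216 against 889 to 2228. The other markers of the list, Cp (480 to 819 and 810 to 1225) and Slc14a2 (20.3 to 129 and 8.26 to 75.7), overlapped. Whether this class holds the same cells in controls and after injury was not tested. Bmp6 reached 10.9 ± 7.79 CPM in glomerular endothelium and was lower elsewhere. Id1 was highest in endothelium in controls, at 805 ± 70.2 CPM in glomerular, 701 ± 44.8 in arterial and 578 ± 51.1 in peritubular capillary endothelium. Id3 was highest in glomerular (1045 ± 78.3) and peritubular capillary endothelium (832 ± 151), and its ranges in arterial endothelium (469 to 715 CPM), frTEC (410 to 730) and stroma (436 to 580) overlapped. Id2 was the most evenly spread member, from 340 ± 41.9 CPM in PT to 70.5 CPM in stroma (n = 3).

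**Figure D1:**
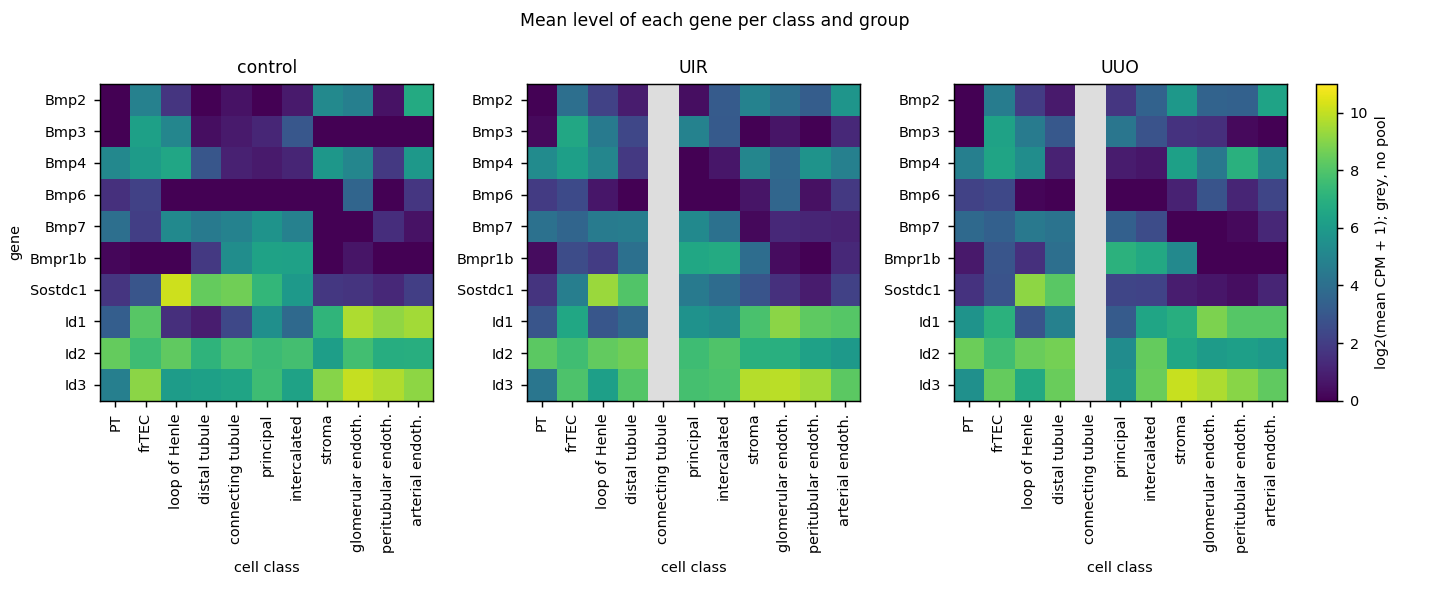
Mean level of the 10 genes (rows) in each cell class (columns) of control, UIR and UUO kidneys, coloured by log2(mean CPM + 1), with grey where no pool could be formed. Sostdc1 is highest in the loop of Henle (1148 CPM in controls), Bmpr1b in principal and intercalated cells, and Id1 in the 3 endothelial classes of controls.

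Groups were compared by the quasi-likelihood test of edgeR on the pools of each class, with p-values adjusted over all genes that entered it, and a gene was called at an adjusted p under 0.05. Both injury models were set against the same control pools, so their results are not independent of each other. A gene had to pass a filter on low counts to be tested, and 4 to 8 of the 10 members did so in a class. Bmpr1b in stroma and distal tubule, Id1 in distal tubule, Bmp3 in principal cells and Bmp4 in peritubular capillary endothelium had few or no control UMIs, so that they passed through the injured pools, had to differ, and count among the calls that follow. Sostdc1 and Bmp7 in intercalated cells had low UUO levels, passed mostly through the other pools and count among these calls too. The p-values of these results against control are given as a description. Over 10 classes the members gave 61 tests of UIR against control, of which 23 were called (37.7%), 10 higher and 13 lower, where 12.3% of all tests of genes were called. For UUO against control, possible in 9 classes, 24 of 54 tests were called (44.4%), 9 higher and 15 lower, beside 16.3% of all genes. UUO differed from UIR in 5 of 54 tests (9.26%) beside 1.02%.

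The calls were unevenly spread over the classes. No member was called in PT, where 8.82% of all genes differed in UIR, 2.91% in UUO and 0.0965% between the models. The UUO pools of PT held only 35 to 53 cells and 50369 to 480909 UMIs. Control pools held 1055 to 1357 cells and 6793416 to 10567968 UMIs. Tests with UUO in this class could therefore miss changes. In frTEC 1 of 8 members was called in UIR (5.37% of all genes), and none was called in UUO (8.04%) or between the models (0.0%). In this class same-labelled UIR and UUO libraries correlated over 0.1 in all 3 pairs, and with the label as a block Sostdc1 was lower in UUO than in UIR (-2.24, adjusted p = 0.0041, against 0.8 without the block) while 232 of all genes were called in place of 0. In the loop of Henle 3 of 6 members were lower in UIR and 3 in UUO, where 28.7% and 30.1% of all genes were called, and none differed between the models (0.275%).

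In the distal tubule 5 of 6 members were called in each model, 4 higher and 1 lower, in the class with the highest background, 37.9% and 42.6% of all genes. None differed there between the models (2.44%). In principal cells, tested in UIR only because a single UUO library had enough cells, 2 of 7 members were called (7.19% of all genes). In intercalated cells 3 of 6 were called in UIR (12.5%), 4 in UUO (24.4%) and 2 between the models (0.998%).

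In stroma 2 of 7 members rose in each model, where 11.5% and 13.7% of all genes were called, and 1 differed between the models (1.24%). In glomerular endothelium 1 of 5 members was lower in UIR (2.1%), 3 in UUO (8.77%) and 1 in UUO against UIR (1.58%). In peritubular capillary endothelium 2 of 4 were called in UIR (4.15%), 4 of 4 in UUO (12.0%) and 1 between the models (2.53%). In arterial endothelium 4 of 5 were lower in UIR (1.76%) and 3 in UUO (4.69%), and none differed between the models (0.554%).

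**Figure D2:**
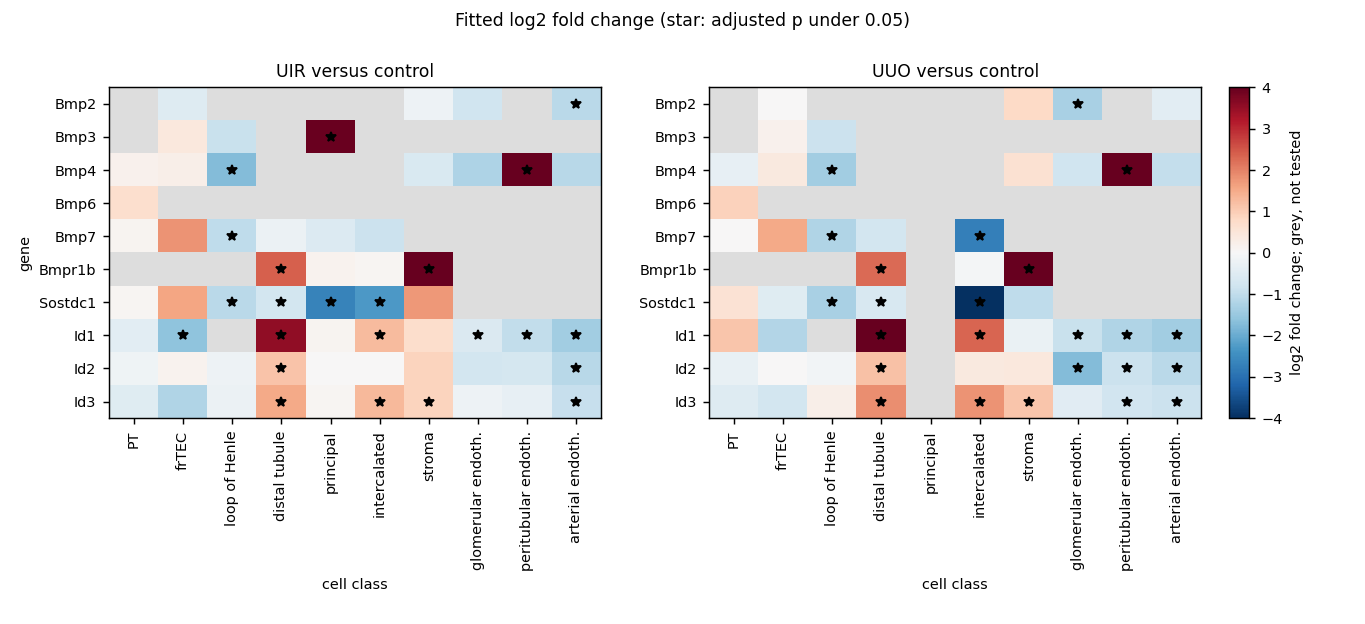
Fitted log2 fold change of each member (rows) in each class (columns) for UIR and UUO against control, with a star where the adjusted p was under 0.05, grey where a gene was not tested, and colours that end at 4 in either direction. Id1 falls in the 3 endothelial classes (from -1.40 to -0.58) and rises in distal tubule and intercalated cells, and Sostdc1 falls in loop of Henle, distal tubule and intercalated cells of both models and in principal cells of UIR.

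Among the ligands, the largest change was that of Bmp4, a ligand of mesenchymal and vascular cells, in peritubular capillary endothelium. The gene lies at chr14:46383520-46390669 on the minus strand of GRCm38. In control pools it stood at 0, 0, 0, 0 and 12.7 CPM, the last from 2 UMIs. In UIR the pools held 56.3, 56.9 and 32.7 CPM, and in UUO 138, 106 and 135. The groups did not overlap, and UUO lay above UIR in every library.

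The ratio to control of the summed counts was 23.2 in UIR (exact 95% interval 6.27 to 194, counting error only) and 60.1 in UUO (16.5 to 498), with adjusted p-values of 1.8e-05 and 4.7e-10. Bmp4 passed the filter on low counts through the injured pools, so these p-values are given as a description. UUO exceeded UIR by 1.34 ± 0.23 (log2, SE; adjusted p = 0.00027). The fitted differences from control, 4.37 and 5.71, rested on few control UMIs and moved to 3.49 and 4.83 without the control library Ctrl and to 7.97 and 9.31 without AN2.

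The peritubular capillary cells came from 3 clusters. In the cluster led by Rgcc and Npr3, which held 216 of the control cells, Bmp4 stood at 0 CPM in controls, 1.85 in UIR and 3.14 in UUO. In the cluster led by Igf1 and Selp it stood at 96.9 CPM in UIR (219 cells) and 176 in UUO (286 cells), and in a cluster led by Aplnr and Acta2 at 122 in UUO (150 cells). These last clusters held fewer than 20 control cells each, so a change within them and a change in the makeup of the class cannot be told apart.

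The 5 summed stromal markers were higher along with Bmp4 in these pools, with 1181 to 1776 CPM over the control pools, 1630 to 1861 over the UIR pools and 2528 to 3108 over the UUO pools. Nearly all of that sum was Sparc, which endothelial cells also make, at 2503 to 3074 CPM in UUO. The fibroblast genes Pdgfrb, Col1a2 and Col3a1 lay at or below 9.44 CPM in every peritubular pool, and Pdgfrb and Col1a2 were at 0 in all controls. Their part in the Bmp4 result was not tested.

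The sequence just upstream of Bmp4 is shown because it is the ligand with the largest change and its window holds no annotated untranslated sequence. It covers 250 bases before the start of the gene (RefSeq, GRCm38.p6, chr14:46390670-46390919, minus strand), printed 5′ to 3′ without capitals because neither motif searched was found.

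Bmp4 upstream: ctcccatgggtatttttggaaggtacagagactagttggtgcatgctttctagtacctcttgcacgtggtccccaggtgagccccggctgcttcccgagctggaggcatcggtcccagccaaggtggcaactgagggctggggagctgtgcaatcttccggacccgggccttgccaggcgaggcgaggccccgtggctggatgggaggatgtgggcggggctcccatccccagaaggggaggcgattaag

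The motifs were GGCGCC, a GC-rich element bound by SMAD1 and SMAD5, and GTCTG, the SMAD-binding element, each on both strands. Of 32851 windows of this length, 9.59% held GGCGCC and 42.2% held GTCTG. A window was at hand for 5 of the 10 members, and 1 GGCGCC was found, in the Id2 window. GTCTG was found 2 times in the Id3 window, and 1 time each in the Bmp6 window and in 2 of the 3 windows of Bmpr1b. The Id windows lie in part or wholly in annotated 5′ untranslated sequence and are not printed.

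In the loop of Henle, the thick ascending limb that makes uromodulin, Bmp4 fell. Control pools stood at 72.2, 112, 109, 78.9 and 83.4 CPM, UIR at 33.3, 31.9 and 30.2, and UUO at 31.3, 41.9 and 51.5. Every injured pool was below every control. The log2 fold change was -1.74 ± 0.18 in UIR (adjusted p = 9.4e-08) and -1.39 ± 0.19 in UUO (adjusted p = 4.2e-06). Most control cells of this class lay in a cluster led by Egf, and most injured ones in clusters led by Slc12a1. Within the Egf cluster Bmp4 stood at 100 CPM in controls (241 cells) and 49.1 in UIR (71 cells).

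Other measures of the loop of Henle pools moved along with its members. The 6 markers of the class summed to 18110 to 22540 CPM in controls but 15040 to 16100 CPM after UIR and 12780 to 13370 CPM after UUO, and Ppp1r1b was at 107 to 262 CPM in controls and at or below 57.6 after injury. Other markers of the list overlapped between controls and injury, among them Cldn19 (144 to 283 and 234 to 295 CPM), Cldn16 (136 to 210 and 96.8 to 164) and Umod (9955 to 13410 and 8765 to 10970). Of 6 stress genes tested, 2 rose in each model, with median log2 fold changes of 0.85 and 0.95, and the median mitochondrial share per cell was 19.8% to 24.6% in controls and 9.06% to 12.1% after injury. Immune markers summed to 0 to 16.7 CPM in controls but 48.8 to 79.2 CPM after UIR and 59.7 to 76.9 CPM after UUO. Their part in the Bmp4, Bmp7 and Sostdc1 results of this class was not tested. A neighbouring cluster of 612 cells, 243 from UIR, 369 from UUO and 0 from controls, could not be named and was left out of the class, as was one of 311 injured cells near the connecting tubule. With the first added to the loop of Henle, an alternative chosen after seeing the data, Bmp4, Bmp7 and Sostdc1 were called lower in both models as before, and Bmp3 in both models and Id2 in UUO were also called lower.

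In stroma Bmp4 separated the models. Control pools held 40.5, 44.2 and 79.7 CPM, UIR 31.0, 38.2 and 28.2, and UUO 84.5, 78.1 and 65.9. UUO exceeded UIR by 1.19 ± 0.20 (log2, adjusted p = 0.0046), whereas neither model differed from control by the test. Without cells that carried markers of another compartment the difference was 1.09 with an adjusted p of 0.18. The makeup of these pools differed between the models as well. Fibro 2, a subtype with 0 to 6.75 CPM of Bmp4 in its own pools, gave 39, 43 and 76 cells of the UIR pools and 43, 23 and 14 of the UUO pools, and Fibro 3 gave 48, 5 and 6 against 76, 40 and 44. The part of this makeup in the stromal difference was not tested, and the values within Fibro 1 follow.

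In Fibro 1, the collagen-rich fibroblasts found almost only in injured kidneys, Bmp4 stood at 55.9, 67.6 and 67.5 CPM in UIR and 130, 112 and 110 in UUO. The 3 UUO pools lay above the 3 UIR pools. The log2 difference was 0.83 ± 0.19 (adjusted p = 0.017), and 3 of the 6 members tested in Fibro 1 were called, all higher in UUO, beside 3.56% of all genes. This call was lost without each of the 3 UIR libraries, with adjusted p-values of 0.06 to 0.078, under DESeq2 (0.051), with 15% of barcodes left out as doublets (0.07) and with 50 or more cells per pool (0.06). Without cells that carried markers of another compartment the difference was 0.61 (adjusted p = 0.76).

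Bmp2, which is made by endothelium and smooth muscle, was called lower in arterial endothelium of UIR kidneys. Controls stood at 144, 55.9, 105, 142 and 75.0 CPM, UIR at 70.3, 35.2 and 52.0, and UUO at 72.5, 71.7 and 105. The UIR range overlapped the lower controls. Its log2 fold change was -1.08 ± 0.26 (adjusted p = 0.028), and -0.41 ± 0.25 (adjusted p = 0.48) in UUO. The UIR call was lost without Ctrl (0.12), AN1 (0.097), UIR 1 (0.19) or UIR 2 (0.11), and without cells that carried markers of another compartment the value was -0.46 (0.91). With 15% of barcodes left out as doublets the adjusted p was 0.17.

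In glomerular endothelium Bmp2 stood at 39.4, 15.7, 11.2, 21.7 and 40.6 CPM in controls and at 12.9, 9.20 and 9.40 in UUO, which overlapped the lowest control. Its log2 fold change was -1.30 ± 0.38 (adjusted p = 0.027), and the call was lost without Ctrl (0.15), AN2 (0.09), UUO 1 (0.11) or UUO 2 (0.083), and with 50 or more cells per pool the value was -0.43 (0.78). With 15% of barcodes left out as doublets the adjusted p was 0.091. In Fibro 1 Bmp2 was at 12.4, 17.9 and 11.7 CPM in UIR and at 140, 27.4 and 24.9 in UUO, so that the unnumbered UUO library carried most of the log2 difference of 2.16 ± 0.58 (adjusted p = 0.048). Without that library it was 0.84 (adjusted p = 0.3), and leaving out UIR unnumbered, UIR 1 or UIR 2 gave adjusted p-values of 0.15, 0.11 and 0.21, and DESeq2 gave 0.28.

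Bmp3, a ligand that opposes other BMPs, rose in principal cells after UIR. Controls held 0, 0, 0, 1.43 and 4.77 CPM, 4 UMIs in all, and UIR held 40.7, 15.5 and 29.1 CPM. All 3 UIR pools stood above all controls, and the single UUO pool that could be formed held 18.9 CPM. The log2 fold change in UIR was 3.94 ± 0.62 (adjusted p = 0.00018, given as a description). It was 5.28 without AN2 and 7.21 without AN1 and AN2, which held all control UMIs. In frTEC Bmp3 had means of 75.3 CPM in controls, 94.5 in UIR and 78.9 in UUO with overlapping ranges and no call. In the loop of Henle the 5 controls ranged from 4.68 to 78.9 CPM around injured pools of 18.4 to 25.3, and the lower fit in UIR (-0.89 ± 0.36, adjusted p = 0.067) was not called.

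Bmp7, a ligand made along the tubule, was lower in the loop of Henle of both models. Controls stood at 56.3, 28.1, 39.0, 31.0 and 28.6 CPM, UIR at 23.4, 22.5 and 23.1, and UUO at 16.6, 21.0 and 24.4. All injured pools were below the lowest control. The log2 fold changes were -1.01 ± 0.22 in UIR (adjusted p = 0.00082) and -1.19 ± 0.24 in UUO (adjusted p = 0.00037). Without cells that carried markers of another compartment the UIR value was -0.91 (adjusted p = 0.13). Within the Egf cluster, where most controls lay, Bmp7 was at 40.8 CPM in controls and 45.1 in UIR.

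In intercalated cells Bmp7 stood at 27.6, 38.8, 32.3, 19.5 and 17.6 CPM in controls, at 14.9, 27.0 and 6.33 in UIR and at 4.05, 5.10 and 5.67 in UUO. The UUO pools were the lowest of the class. The log2 fold change was -2.74 ± 0.44 in UUO against control (adjusted p = 0.0001) and -1.88 ± 0.44 in UUO against UIR (adjusted p = 0.045). With 3, 11 and 7 UMIs in the UUO pools, Bmp7 passed the filter on low counts through control and UIR pools. The p-value against control is given as a description. The UUO levels were near those in immune cells, a class not known to make Bmp7, which held 3.11 to 4.64 CPM in the UUO libraries. Slc26a4, which marks one type of intercalated cell, was at 171 to 842 CPM in controls and 5.41 to 69.6 in UUO. Slc4a1, another marker of the class, fell as well, from 567 to 846 CPM in controls to 33.35 to 97.3 in UUO. Atp6v1g3 (5880 to 6982 and 3441 to 5507) and Atp6v0d2 (719 to 1040 and 480 to 652) were below every control in UUO too. Aqp6 (298 to 1227 and 412 to 533) and Foxi1 (293 to 612 and 512 to 708) overlapped. Bmp7 in controls was at 46.1 CPM in the cluster led by Slc26a4 and 7.70 in the cluster led by Aqp6. The part of these marker shifts was not tested. The call between the models was lost without Ctrl (0.052), N1 (0.063), N2 (0.064), AN1 (0.055), UIR unnumbered (0.07), UIR 1 (-1.25, 0.33), UUO unnumbered (0.088), UUO 1 (0.18) or UUO 2 (0.12). It was also lost with 15% of barcodes left out as doublets (-1.35, 0.36), at a mitochondrial limit of 15% (0.17), with 50 or more cells per pool (0.099), with free RNA subtracted (0.066) and with library sizes alone (0.062). The UUO value against control was -2.15 with 15% of barcodes left out as doublets.

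In principal cells, distal tubule and PT, Bmp7 was tested and not called. Bmp6 passed the filter in PT alone, where controls held 1.22 to 2.80 CPM, and it was not called. In glomerular endothelium, where its control level was highest, it stood at 0 to 19.5 CPM in controls but 8.15 to 14.1 CPM after UIR and 5.52 to 6.51 CPM after UUO and was not tested.

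**Figure D3:**
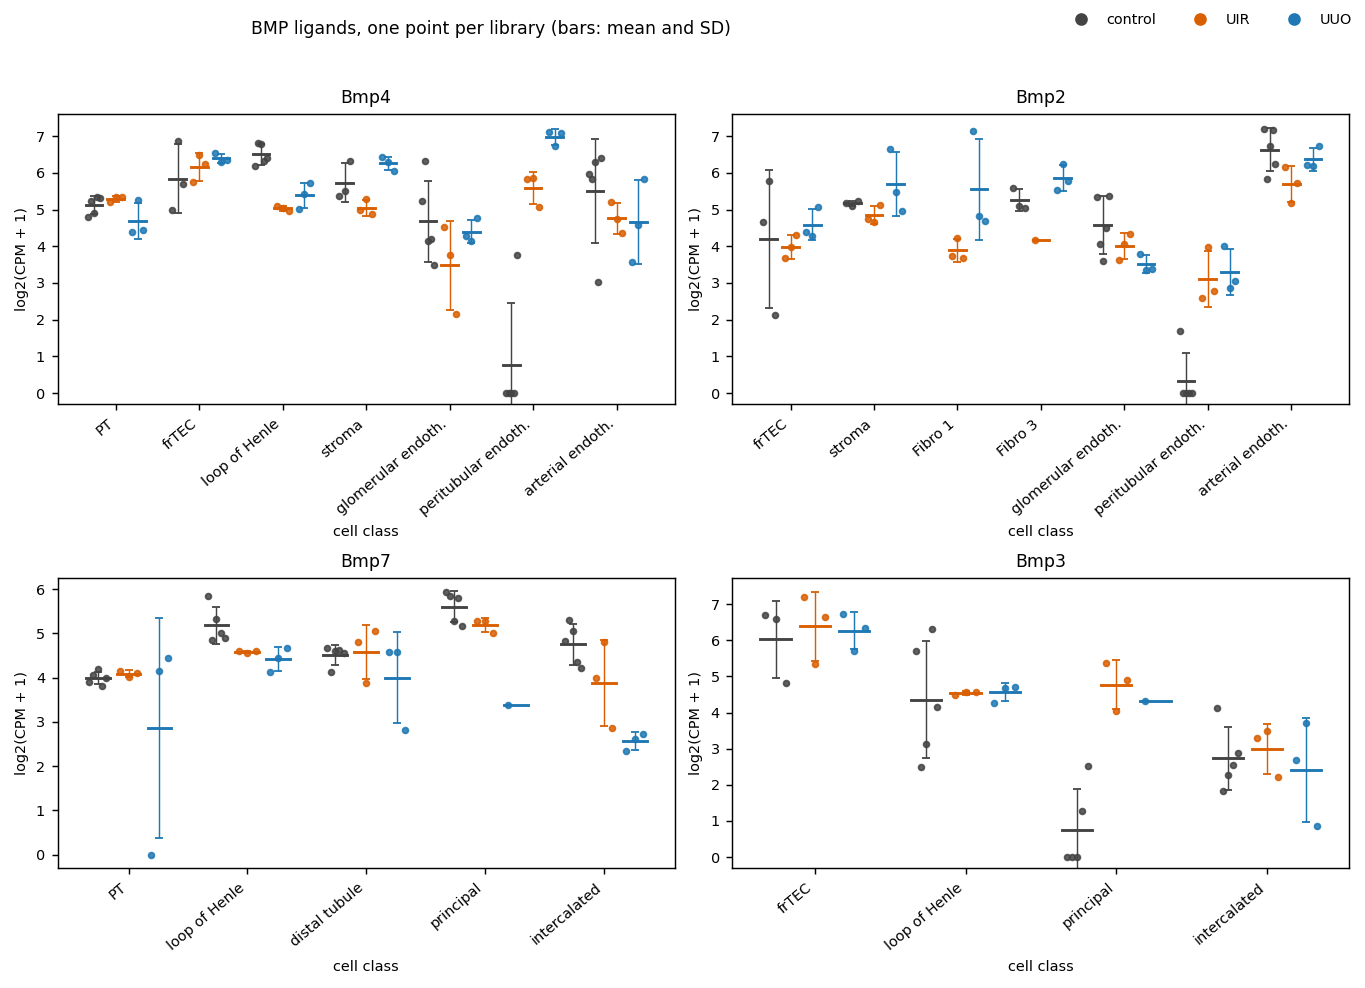
Levels of Bmp4, Bmp2, Bmp7 and Bmp3 as log2(CPM + 1) by cell class, 1 point per library, with bars for the mean and SD of these values in each group. Bmp4 in peritubular capillary endothelium lies at 0 in 4 of 5 controls and at 106 to 138 CPM in UUO, and Bmp4 and Bmp7 in the loop of Henle lie below every control after injury.

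Bmpr1b, the type I receptor of highest level in the collecting duct, was not called there. Principal cells held 80.2 ± 22.7 CPM in controls (n = 5) and 92.8 in UIR (log2 difference 0.13 ± 0.20, adjusted p = 0.81), and intercalated cells held 77.5 ± 23.5 CPM in controls, 104 in UIR and 98.8 in UUO, with log2 differences of 0.09 ± 0.18 and -0.07 ± 0.18. It was called in classes where controls had little. In the distal tubule controls held 1.11, 3.28, 8.52, 0 and 0 CPM, 6 UMIs in all, against 14.9, 16.0 and 16.2 CPM after UIR and 15.7, 14.1 and 15.5 CPM after UUO. The injured pools were all above the controls and close to each other. The p-values that follow for this class are given as a description. The log2 fold changes were 2.40 ± 0.52 (adjusted p = 0.00053) and 2.27 ± 0.55 (adjusted p = 0.0013), and they became 3.65 and 3.51 without N2, which held 4 of the 6 control UMIs, 4.37 and 4.24 without N1 and N2 together, and 3.29 and 3.38 at a mitochondrial limit of 15%. Without AN1 and AN2, which held none, the UIR value was 1.74 (adjusted p = 0.012) and the UUO value 1.6 (adjusted p = 0.023).

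In stroma no Bmpr1b UMI was counted in the 3 control pools, against 11.5, 17.9 and 13.6 CPM in UIR and 39.0, 45.8 and 20.6 in UUO. Against a floor of 3 counts over the control group (5.81 CPM), the level was at least 2.50-fold higher in UIR and at least 6.14-fold higher in UUO, with adjusted p-values of 0.039 and 0.0032. Having no control UMI, it passed the filter on low counts through the injured pools alone, so these p-values are given as a description. The UIR call was lost without N1 (0.09), N2 (0.12), AN1 (0.1), UIR 1 (0.063) or UIR 2 (0.052), and without N1 and N2 together, which leaves 1 control pool, the UIR call (0.38) and the UUO call (0.15) were both lost. The UIR call was also lost at a mitochondrial limit of 15% (0.2) and with 15% of barcodes left out as doublets (0.11). Control stroma was mostly Fibro 3, a subtype with no Bmpr1b UMI in any pool, injured or not, and with 1.59 CPM over all its 109 control cells when libraries too small for a pool are included. Bmpr1b lay in a Fibro 1 cluster led by Igfbp2 and Ifitm1, at 117 CPM in UIR (38 cells) and 100 in UUO (129 cells), whereas another Fibro 1 cluster led by Cxcl10 held 2.50 and 1.83 CPM.

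Over Fibro 1 as a whole Bmpr1b stood at 26.9, 28.04 and 14.7 CPM in UIR and 61.0, 72.6 and 33.9 in UUO, a log2 difference of 1.24 ± 0.31 (adjusted p = 0.032). Every UUO pool was above every UIR pool, while the Igfbp2 cluster held 38 UIR and 129 UUO cells, so the makeup of Fibro 1 differed as well. The call was lost without UIR unnumbered (0.065), UIR 1 (0.065), UIR 2 (0.22), UUO unnumbered (0.058) or UUO 1 (0.12), under DESeq2 (0.057), and without cells that carried markers of another compartment (2.09, adjusted p = 0.36).

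Sostdc1, the antagonist, fell in every class of the distal nephron that could be tested. In the loop of Henle it stood at 1070, 1245, 1296, 972 and 1159 CPM in controls, 668, 660 and 610 in UIR and 721, 463 and 497 in UUO. No injured pool reached a control. UIR and UUO had log2 fold changes of -1.09 ± 0.16 (adjusted p = 1.6e-05) and -1.29 ± 0.17 (adjusted p = 1.8e-06). Within the Egf cluster it was at 1167 CPM in controls and 983 in UIR, and in the largest cluster of injured cells, led by Slc12a1, at 637 in UIR and 584 in UUO.

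In the distal tubule Sostdc1 stood at 275, 302, 305, 395 and 405 CPM in controls, 234, 231 and 309 in UIR and 306, 236 and 324 in UUO. Here the groups overlapped. By the test, UIR and UUO had log2 fold changes of -0.74 ± 0.15 (adjusted p = 0.00034) and -0.64 ± 0.15 (adjusted p = 0.0015). Scaling by the trimmed mean of M-values (TMM) shifted the log2 values of all genes of this class by -0.36 in UIR and -0.42 in UUO (elsewhere by more than 0.1 in the loop of Henle, -0.26 and -0.27, intercalated cells, -0.24 and -0.33, and in UUO PT, -0.34, peritubular capillary, -0.12, and Fibro 3, -0.11), and with library sizes alone the UUO difference was -0.21 (adjusted p = 0.24). Without cells that carried markers of another compartment it was -0.63 (adjusted p = 0.067).

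In principal cells Sostdc1 stood at 131, 158, 228, 148 and 111 CPM in controls and 10.9, 38.1 and 17.7 in UIR. The groups were well apart. The log2 fold change was -2.68 ± 0.28 (adjusted p = 1.2e-06), and it was -3.37 without UIR 1 and, in an alternative chosen after seeing the data, -1.77 (adjusted p = 0.00032) with the connecting tubule and the neighbouring unnamed injury cluster added to the class. The summed principal markers were also lower in these pools, at 12980 to 14740 CPM against 18960 to 26750 in controls, and the median mitochondrial share was 12.4% to 15.6% against 17.5% to 22.8%. Immune markers stood at 81.4 to 109 CPM against 6.33 to 48.6. The part of these shifts in the Bmp3 and Sostdc1 results of principal cells was not tested.

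In intercalated cells it stood at 67.7, 93.0, 104, 9.77 and 32.0 CPM in controls, 9.37, 26.3 and 5.42 in UIR and 1.35, 3.24 and 6.48 in UUO. Only UUO was below every control. The log2 fold changes from control were -2.31 ± 0.45 in UIR (adjusted p = 0.0015) and -4.37 ± 0.59 in UUO (adjusted p = 1.5e-05). Sostdc1 passed the filter on low counts mostly through the control pools, so these p-values are given as a description. Without UIR 1 the UIR value was -3.27. It was -1.72 without N1 and N2 (adjusted p = 0.052) and -2.63 without cells that carried markers of another compartment (adjusted p = 0.11), and was called in neither case. With 15% of barcodes left out as doublets the values were -3.91 and -4.99, and the UUO value was -3.78 without N1 and N2. The 6 principal cell markers, of a class with 155 CPM of Sostdc1 in controls, moved along with it in these pools. They summed to 1324 to 3731 CPM in controls, 568 to 2596 over the UIR pools and 425 to 971 over the UUO pools, and the UIR pool with 2596 CPM was UIR 1, the highest of its group for Sostdc1. The 6 distal tubule markers, of a class with 336 CPM of Sostdc1 in controls, moved likewise. They summed to 572 to 1088 CPM in controls, 104 to 536 in UIR, again highest in UIR 1, and 107 to 137 in UUO. Immune cells of the UUO libraries held 0.98 to 3.3 CPM of Sostdc1, near its UUO levels here. The part of these markers in this result was not tested.

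**Figure D4:**
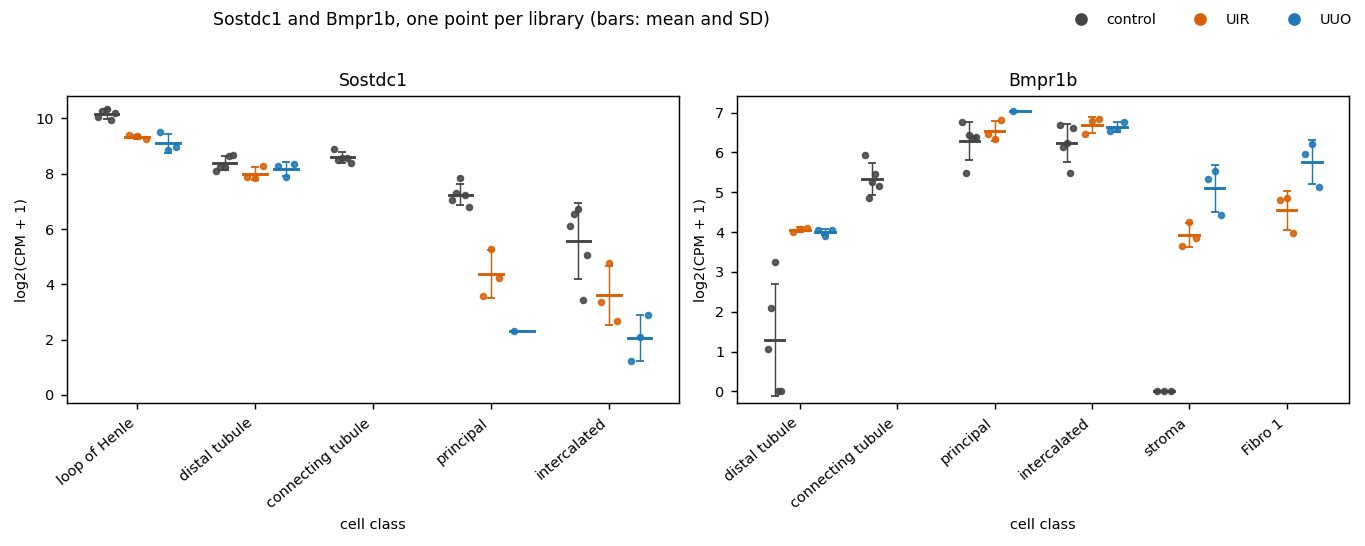
Levels of Sostdc1 and Bmpr1b as log2(CPM + 1) by cell class, 1 point per library, with bars for the mean and SD of these values in each group. Sostdc1 in the loop of Henle lies at 972 to 1296 CPM in controls and at 463 to 721 after injury, and Bmpr1b in stroma is at 0 in the 3 control pools.

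Id genes were called lower in endothelium and higher in distal tubule and intercalated cells, and the difference between classes was not tested. In arterial endothelium Id1 stood at 677, 659, 745, 754 and 669 CPM in controls, 413, 231 and 181 in UIR and 246, 317 and 262 in UUO. In peritubular capillary endothelium it stood at 626, 593, 570, 606 and 494 CPM in controls, 468, 256 and 204 in UIR and 219, 283 and 325 in UUO. In glomerular endothelium it stood at 861, 709, 753, 865 and 838 CPM in controls, 672, 452 and 519 in UIR and 422, 490 and 470 in UUO. In each of the 3 classes all injured pools lay below all controls, and the unnumbered UIR library was the highest of its group.

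The log2 fold changes of Id1 in UIR and UUO were -1.40 ± 0.19 and -1.39 ± 0.19 in arterial endothelium (adjusted p = 6.5e-05 and 3.2e-05). In peritubular capillary endothelium they were -1.0 ± 0.20 and -1.19 ± 0.20 (adjusted p = 0.0014 and 3.5e-05). In glomerular endothelium they were -0.58 ± 0.15 and -0.88 ± 0.15 (adjusted p = 0.036 and 0.00014), and the UIR call was lost without N2 (0.057), AN1 (0.084), AN2 (0.083), UIR 1 (0.21) or UIR 2 (0.17), with no filter on low counts (0.055), with 50 or more cells per pool (0.37) and with library sizes alone (0.06). UUO did not differ from UIR by the test in any of the 3 classes.

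By sums over all cells of a group, with no spread between libraries, Id1 was also lower inside clusters that all groups shared. In the arterial cluster led by Tspan8 it was at 616 CPM in controls, 205 in UIR and 209 in UUO, and in the arterial cluster led by Mgp at 1001, 479 and 482. In the Rgcc cluster of peritubular cells it was at 627, 354 and 379. In glomerular endothelium control and UUO cells sat mostly in different clusters. The cluster led by Lpl held 217 control, 114 UIR and 22 UUO cells and had Id1 at 816, 579 and 687 CPM and Id2 at 201, 144 and 86.8, whereas clusters led by Apln and by Slc45a4 held 326 and 312 UUO cells, with Id1 at 375 and 583 CPM and Id2 at 33.7 and 107. A change within cells and a change in this makeup cannot be told apart for the glomerular values. Of the genes of dissociation stress in the 7-gene list Fos, Fosb, Jun, Junb, Egr1, Hspa1a and Hspa1b, none was called in arterial (6 tested) or glomerular endothelium (4 tested), and 1 rose and 1 fell in peritubular capillary endothelium in each model (5 tested). Their median log2 fold changes in UIR and UUO were 0.28 and -0.25 in arterial, 1.12 and 1.15 in glomerular and 0.89 and 0.50 in peritubular capillary endothelium, and their part in the Id results was not tested.

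Other measures of the endothelial pools moved along with the Id genes. In arterial endothelium the 10 immune markers summed to 0 to 15.6 CPM in controls but 74.3 to 86.3 CPM after UIR and 108 to 242 CPM after UUO, and the 5 stromal markers, mostly Sparc, to 1180 to 1475 CPM in controls but 1692 to 1794 CPM after UIR and 2467 to 2771 CPM after UUO. The median mitochondrial share was 8.10% to 15.3% in controls, 6.88% to 9.74% after UIR and 5.50% to 5.99% after UUO. In glomerular endothelium immune markers summed to 4.35 to 13.1 CPM in controls but 67.4 to 107 CPM after UIR and 67.1 to 167 CPM after UUO, stromal markers at 1026 to 1887, 1634 to 1770 and 2360 to 3224, and the 5 podocyte markers at 1056 to 1139, 639 to 819 and 543 to 657. In peritubular capillary endothelium immune markers summed to 0 to 42.4 CPM in controls but 67.9 to 161 CPM after UIR and 96.7 to 145 CPM after UUO, and stromal markers at 1181 to 1776, 1630 to 1861 and 2528 to 3108. The part of these shifts in the Id results was not tested.

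Id2 and Id3 fell in arterial endothelium too. Id2 stood at 135, 160, 84.3, 92.4 and 125 CPM in controls, 77.0, 53.3 and 45.5 in UIR and 58.8, 47.8 and 71.3 in UUO. Id3 stood at 550, 715, 471, 469 and 578 CPM in controls, 388, 287 and 236 in UIR and 343, 344 and 260 in UUO. Neither gene's injured pools overlapped the controls.

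For Id2 the log2 fold changes were -1.11 ± 0.21 (adjusted p = 0.004) and -1.09 ± 0.22 (adjusted p = 0.002), and the UIR call was lost without UIR 2 (0.052) and the UUO call without cells that carried markers of another compartment (0.052). For Id3 they were -0.93 ± 0.17 (adjusted p = 0.0026) and -0.87 ± 0.17 (adjusted p = 0.0019), and without cells that carried markers of another compartment they were -1.59 and -1.69. Id2 and Id3, like Id1, were lower in the Tspan8 cluster itself, with Id3 at 484 CPM in controls, 152 in UIR and 144 in UUO. Values of Id2 and Id3 in the arterial cluster led by Mgp are not reported here.

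In the other endothelial classes the calls were in UUO. Glomerular Id2 stood at 202, 273, 209, 217 and 102 CPM in controls, 148, 141 and 79.8 in UIR and 68.7, 42.8 and 82.4 in UUO, and UUO was lower than control by 1.74 ± 0.24 on the log2 scale (adjusted p = 1.1e-05). UUO was also below UIR, with a log2 difference of -1.01 ± 0.25 (adjusted p = 0.035) and overlapping ranges, and this call was lost without UIR unnumbered (0.24), UIR 1 (0.21) or UUO 1 (0.3), under DESeq2 (0.058), with free RNA subtracted (0.086) and with library sizes alone (0.062). Peritubular Id2 and Id3 had log2 fold changes of -0.85 ± 0.25 (adjusted p = 0.019) and -0.78 ± 0.22 (adjusted p = 0.013) in UUO. The Id2 call was lost without Ctrl (0.14), AN1 (0.087) or UUO 1 (0.1), without AN1 and AN2 together (0.064), under DESeq2 (0.06) and at a mitochondrial limit of 15% (-0.60, adjusted p = 0.24). The Id3 call was lost without Ctrl (0.053), UUO 1 (0.083) or N1 and N2 together (0.069).

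In the distal tubule, which reabsorbs sodium through Slc12a3, all 3 Id genes rose. Id1 stood at 0, 0, 0, 2.65 and 1.62 CPM in controls, 2 UMIs in all, against 11.9, 12.0 and 12.7 in UIR and 55.4, 9.03 and 17.2 in UUO. Id2 stood at 164, 194, 149, 95.4 and 98.7 CPM in controls, 354, 420 and 397 in UIR and 457, 355 and 436 in UUO. Id3 stood at 80.8, 85.3, 63.9, 101 and 43.7 CPM in controls, 263, 252 and 286 in UIR and 581, 241 and 248 in UUO. Every injured pool exceeded every control for each gene, and the unnumbered UUO library was the highest for all 3.

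The count ratio of Id1 to control was 16.3 in UIR (exact 95% interval 4.37 to 137) and 30.9 in UUO (8.33 to 259), with adjusted p-values of 0.0058 and 0.00017, given as a description. The fitted differences of 3.54 and 4.50 moved to 4.23 and 5.20 without AN1, and the UUO value to 3.48 without UUO unnumbered. Without AN1 and AN2, which held all control UMIs, they were 7.06 and 8.02, and the UIR call was lost at a mitochondrial limit of 15% (3.45, adjusted p = 0.056). For Id2 the log2 fold changes were 1.13 ± 0.17 (adjusted p = 4.3e-06) and 1.16 ± 0.17 (adjusted p = 2.6e-06). For Id3 they were 1.51 ± 0.25 (adjusted p = 1.7e-05) and 1.87 ± 0.25 (adjusted p = 6e-07).

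The distal pools differed between groups in more than the members. Most control cells lay in clusters led by Pvalb and by Calb1, and most injured ones in a cluster led by Tmem52b, in which Id3 stood at 277 CPM in UIR and 335 in UUO. The 6 distal markers summed to 8228 to 12300 CPM in controls. Their sums were 3812 to 4304 CPM after UIR and 2052 to 2913 CPM after UUO. Pvalb was at 464 to 810 CPM in controls and at or below 21.7 after injury. Slc12a3, Calb1, Trpm6 and Emx1 of this list also lay below every control in all injured pools. Tmem52b went the other way after UIR, where its pools (2311 to 2477 CPM) stood above every control (1651 to 1898). Its UUO pools, at 1572 to 2077 CPM, overlapped the controls. The 6 principal cell markers summed to 132 to 379 CPM in controls. After injury they summed to 1858 to 2870 CPM in UIR and 1369 to 2124 CPM in UUO, mostly Hsd11b2. Fxyd4 was above every control too, at 193.0 to 462.9 CPM in UIR and 119.5 to 272.2 in UUO against 23.25 to 119.3. Aqp3 was so in UIR alone, at 87.97 to 207.6 CPM against 4.428 to 26.51 in controls. Aqp2 was below every control in UUO (0.0 to 15.69 CPM against 31.0 to 61.8) and overlapped them in UIR. Avpr2 overlapped the controls in both models, and Aqp4 was at or below 2.626 CPM in every pool. The 6 intercalated cell markers summed to 17.8 to 62.4 CPM in controls but 87.0 to 170 CPM after UIR and 216 to 479 CPM after UUO. Stromal markers summed to 0 to 12.9 CPM in controls but 17.1 to 32.4 CPM after UIR and 74.8 to 99.9 CPM after UUO, and immune markers to 0 to 13.1, 69.5 to 104 and 63.6 to 114 CPM. Of 6 stress genes tested, 3 rose in UIR, and 4 rose and 1 fell in UUO, with median log2 fold changes of 1.47 and 1.69. Median UMIs per cell were 1576 to 5248 in controls and 7936 to 15970 in injured libraries. The part of these shifts in the Id and Bmpr1b results was not tested.

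In intercalated cells, which secrete acid or base, Id1 and Id3 rose. Id1 stood at 8.29, 12.9, 13.3, 4.89 and 24.0 CPM in controls, 48.5, 40.2 and 27.1 in UIR and 94.6, 70.9 and 97.9 in UUO. Id3 stood at 52.5, 111, 101, 63.5 and 76.9 CPM in controls, 249, 208 and 251 in UIR and 355, 304 and 402 in UUO. For both genes the 3 groups followed each other without overlap. Id2 was not called in this class.

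The log2 fold changes of Id1 were 1.28 ± 0.32 (adjusted p = 0.0098) and 2.32 ± 0.30 (adjusted p = 8.2e-06), and those of Id3 were 1.31 ± 0.19 (adjusted p = 0.00013) and 1.81 ± 0.19 (adjusted p = 1e-06). The UIR call of Id1 was lost without Ctrl (0.052), without N1 and N2 together (0.081), with 15% of barcodes left out as doublets (0.098) and with 50 or more cells per pool (0.17), and without cells that carried markers of another compartment both calls of Id1 were lost, at 0.46 in UIR (adjusted p = 0.87) and 1.44 in UUO (adjusted p = 0.21). UUO exceeded UIR for Id1 by 1.04 ± 0.24 (adjusted p = 0.036), a call lost without N1 (0.06), N2 (0.058), UIR 1 (0.093), UIR 2 (0.12), UUO unnumbered (0.1) or UUO 2 (0.16), at a mitochondrial limit of 15% (0.22), with 50 or more cells per pool (0.09), with free RNA subtracted (0.056) and without cells that carried markers of another compartment (0.27). In the cluster led by Aqp6 alone Id3 was at 105 CPM in controls, 262 in UIR and 408 in UUO. Of 6 stress genes tested, 2 rose in UIR and 3 in UUO, with median log2 fold changes of 1.19 and 1.83. Immune markers in these pools summed to 9.77 to 28.4 CPM in controls but 65.4 to 73.2 CPM after UIR and 69.6 to 127 CPM after UUO, and stromal markers to 0 to 5.17, 10.8 to 12.8 and 7.29 to 31.5 CPM. The median mitochondrial share was 15.3% to 24.95% in controls and 9.64% to 14.2% after injury. Their part in the Id result was not tested.

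**Figure D5:**
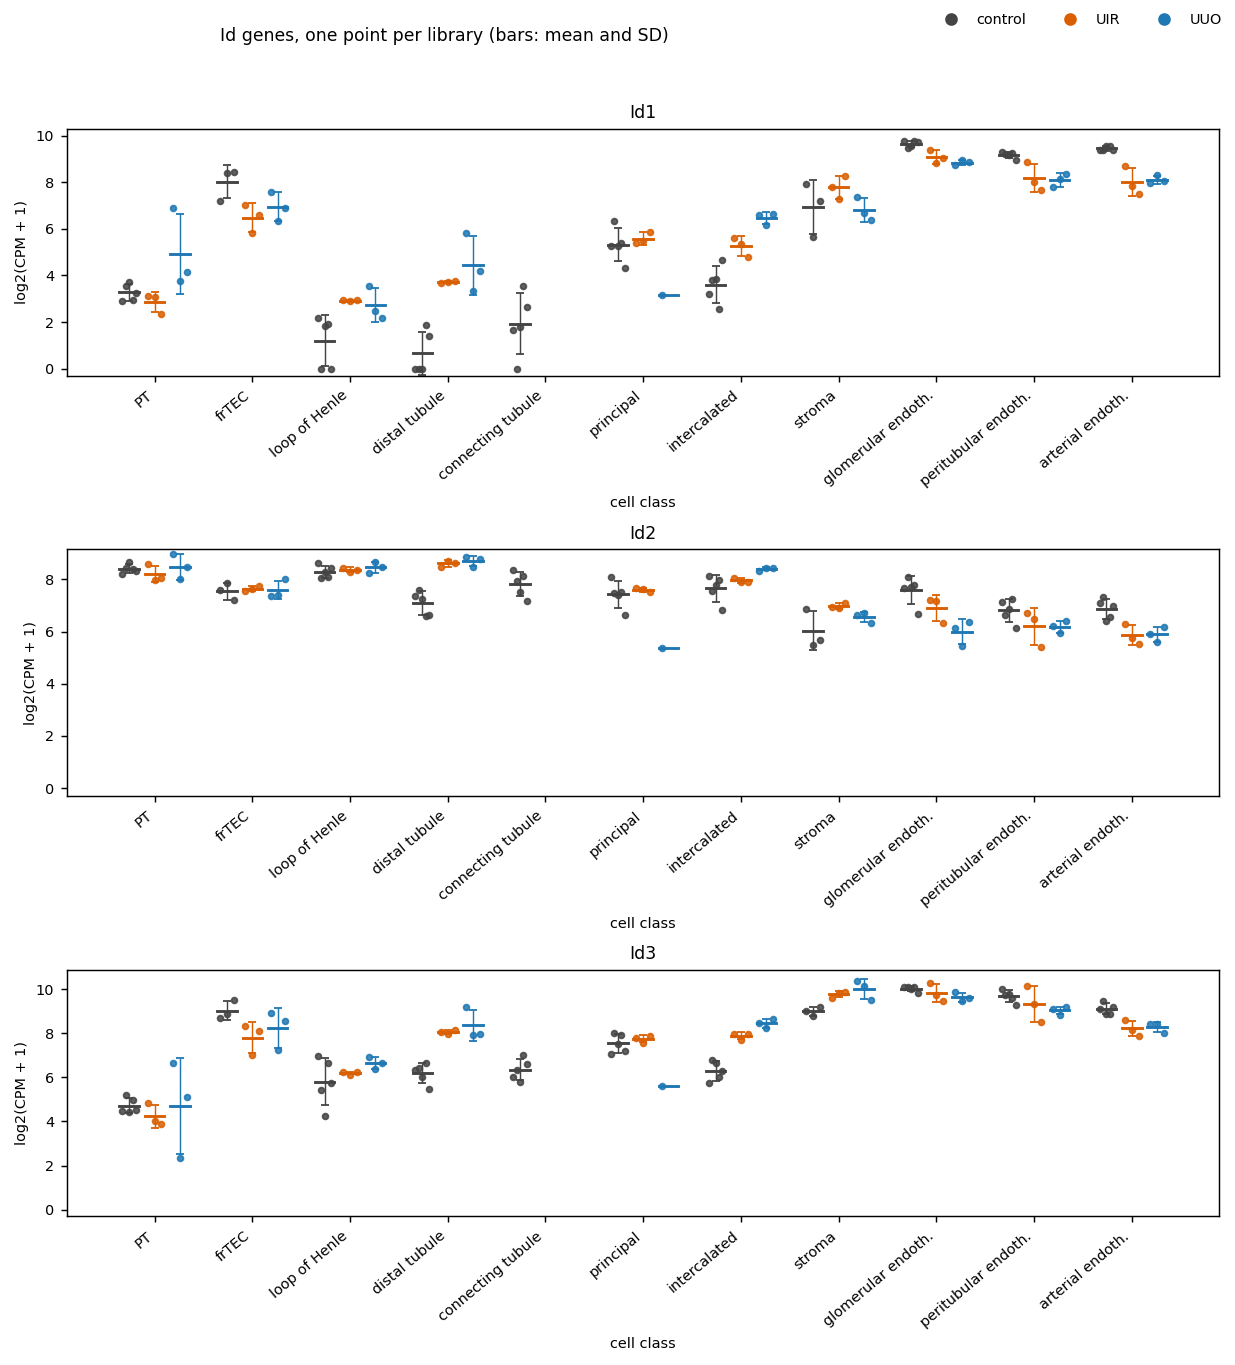
Levels of Id1, Id2 and Id3 as log2(CPM + 1) by cell class, 1 point per library, with bars for the mean and SD of these values in each group. Id1 lies lower after injury in the 3 endothelial classes, and Id3 in the distal tubule lies at 43.7 to 101 CPM in controls and at 241 to 581 after injury.

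In stroma Id3 rose in both models. Controls stood at 522, 436 and 580 CPM, UIR at 779, 901 and 944, and UUO at 1336, 1138 and 721. All injured pools were above the controls. Against control, UIR and UUO had log2 fold changes of 0.88 ± 0.23 (adjusted p = 0.019) and 1.12 ± 0.23 (adjusted p = 0.0033), and the UIR call was lost without N2 (0.096) or UIR 2 (0.053). Without N1 and N2 together, both calls were lost (0.29 and 0.15). The mix of subtypes differed, since control stroma was mostly Fibro 3. Within Fibro 3 Id3 had a log2 fold change of 0.18 ± 0.20 in UUO (adjusted p = 0.75), none of 4 members tested there was called and 2.08% of all genes were. In stroma 3 of 7 stress genes rose in each model, with median log2 fold changes of 0.95 and 1.31, and immune markers summed to 0 to 36.3 CPM in controls but 43.2 to 115 CPM after UIR and 77.6 to 108 CPM after UUO. Their part in the Id3 result was not tested.

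In Fibro 2, the contractile subtype with Acta2, Id3 stood at 1090, 949 and 890 CPM in UIR and 1814 and 2058 in the 2 UUO pools. UUO was higher by 0.97 ± 0.19 on the log2 scale (adjusted p = 0.0057), the only call among 4 members tested, beside 0.486% of all genes, and it was lost without UIR 1 (0.073) or UIR 2 (0.16). Id1 was a Fibro 2 gene among stromal subtypes, at 656 CPM in UIR and 607 in UUO, against 21.4 and 15.8 in Fibro 1.

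In frTEC, Id1 stood at 147, 339 and 348 CPM in the 3 control pools, 130, 55.2 and 96.4 in UIR and 191, 80.7 and 118 in UUO. UIR was below every control, with a log2 fold change of -1.62 ± 0.40 (adjusted p = 0.039), and UUO overlapped the lowest control (-1.17 ± 0.40, adjusted p = 0.1). The UIR call was lost without N2 (0.096), AN2 (0.24), UIR 1 (0.12), UIR 2 (0.11) or UUO 2 (0.065), and without cells that carried markers of another compartment (0.26), and the control pools held only 20 to 30 cells each. Markers moved along with Id1. Cryab stood at 4984 to 5216 CPM in controls and 1625 to 2228 in UIR, Vcam1 at 6.76 to 257 and 425 to 660, and the stromal markers summed to 47.3 to 339 and 629 to 870. PT markers summed to 331 to 630 CPM in controls, 350, 1829 and 1413 in UIR and 71.2, 966 and 992 in UUO. In each model the unnumbered library was the lowest for them and the highest for Id1. Of 6 stress genes tested none was called in UIR and 1 fell in UUO, with median log2 fold changes of -1.29 and -1.28. The part of these shifts was not tested. This class was made of 4 clusters, and Id1 and Bmp3 were among the leading genes of one of them.

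In PT, loop of Henle and principal cells no Id gene that was tested was called, and Id1 was not tested in the loop of Henle. Id2 in the loop of Henle was 315 ± 52.6 CPM in controls against 330 in UIR and 354 in UUO, with log2 fold changes of -0.21 ± 0.14 and -0.11 ± 0.14. Principal cells held Id3 at 192 ± 54.9 CPM in controls and 215 in UIR (log2 0.08 ± 0.19, adjusted p = 0.88).

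A list of 42 other genes of the pathway was described in the same fits. Over the classes 37 of 203 tests were called in UIR (18.2%, beside 12.3% of all genes), 21 higher and 16 lower. In UUO 42 of 181 were called (23.2%, beside 16.3%), 26 higher and 16 lower, and 5 of 181 (2.76%, beside 1.02%) differed between the models. The median log2 fold change of the list in a class ran from -0.18 in frTEC to 0.49 in the distal tubule in UIR, where all genes gave -0.01 to 0.12 over the classes, and from -0.35 in glomerular endothelium to 0.51 in the distal tubule in UUO, where all genes gave -0.09 to 0.12.

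In endothelium Smad7, an inhibitory SMAD, had log2 fold changes in UIR and UUO of -1.20 ± 0.20 and -1.84 ± 0.20 in glomerular endothelium (adjusted p = 0.00068 and 3.1e-07), -0.96 ± 0.24 and -1.17 ± 0.23 in peritubular capillary (0.012 and 0.00043) and -0.93 ± 0.22 and -0.88 ± 0.22 in arterial endothelium (0.023 and 0.016). Smad6, the BMP-directed inhibitory SMAD, fell in glomerular endothelium from 316 CPM in controls to 173 in UIR and 149 in UUO (adjusted p = 0.0017 and 9.5e-06).

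Sost, a secreted antagonist related to Sostdc1, averaged 110 CPM in control glomerular endothelium, 16.7 in UIR and 0.421 in UUO, the last from 2 UMIs, so that the ratio of control to UUO was 278 (exact 95% interval 75.9 to 2317). It was among the genes that lead the cluster holding most of the control cells. A change within cells and a change in the makeup of the class cannot be told apart for this value. Smad1, the receptor-activated SMAD, rose in UUO in peritubular capillary (1.12 ± 0.21, adjusted p = 0.00021) and arterial endothelium (0.98 ± 0.27, adjusted p = 0.034).

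In tubules and stroma, Fstl1, a secreted follistatin-like protein, had log2 fold changes in UIR and UUO of 1.40 ± 0.28 and 1.77 ± 0.28 in the loop of Henle (adjusted p = 0.00041 and 2.8e-05) and 1.71 ± 0.25 and 2.19 ± 0.25 in stroma (0.00033 and 3e-05). The distal tubule had higher Smad1 (log2 1.51 ± 0.26, adjusted p = 3.4e-05) and Bmpr1a, another type I receptor (1.19 ± 0.18, adjusted p = 4.9e-06), in UIR. Twsg1, an extracellular BMP modulator, rose in the loop of Henle by 0.85 ± 0.17 in UIR and 0.86 ± 0.17 in UUO (adjusted p = 0.00045 and 0.00051). Smad7 rose in UUO in intercalated cells (0.96 ± 0.20, adjusted p = 0.0014), unlike its lower level in endothelium. In frTEC Id4 fell from 155 CPM in controls to 39.2 in UIR and 41.6 in UUO (adjusted p = 0.0038 and 0.0036). In stroma Nbl1, a secreted antagonist, rose by 2.51 ± 0.50 and 3.1 ± 0.49 (adjusted p = 0.0033 and 0.00045). The endothelial co-receptor Eng, higher in control stroma at 661 CPM, was at 191 in UIR (adjusted p = 0.00027). Control stroma was mostly Fibro 3, whereas injured stroma held many Fibro 1 and Fibro 2 cells as well. A change within cells and a change in this makeup cannot be told apart for Fstl1, Nbl1 and Eng in stroma.

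The likeness of 9 members to other genes, Bmp6 left out, was described by Pearson's r over 31 class-by-group means of log2(CPM + 1), among 11082 genes. Sostdc1 was most like Kng2 (0.943), Bmp7 was most like Dlec1 (0.953) and Bmpr1b was most like Kif26b (0.944). For the Id genes the closest were Prdx4 for Id1 (0.912), Fxyd2 for Id2 (0.846) and Son for Id3 (0.904), and for the other ligands Atp10a for Bmp2 (0.875), Zcchc18 for Bmp3 (0.903) and Ldlrad3 for Bmp4 (0.847). The points share libraries and depth, and groups of a class are not independent.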

How the data were processed

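Droplet single-cell 3′ libraries of 5 control, 3 UIR and 3 UUO kidneys were analysed. The submitters' processing notes name Cell Ranger 3.1.0 and mm10, whereas the study's methods name a later Cell Ranger version, and which of them made the files was not settled. The deposited matrices hold raw UMI counts per gene and barcode, not normalised and not restricted to cells. Barcodes were called as cells by an ordered rank limit and, above 500 UMIs, by a test against empty droplets. Barcodes with over 30% mitochondrial UMIs, over 5% haemoglobin UMIs or under 200 genes were removed, as were the 7.5% highest doublet scores per library. Cells were clustered with scanpy 1.11.5 and leidenalg 0.10.2 and named from markers. How markers name a cluster was changed 1 time in view of marker levels, before values of the genes described were computed, and clusters it could not name (6.74% to 23.1% of cells per library) entered no class.

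Counts were summed per class and library with 20 or more cells and fitted with edgeR 4.0.16 (filterByExpr, TMM, glmQLFit and glmQLFTest, 1 mean per group, Benjamini-Hochberg over all genes of a class, R 4.3.3). The script was tested on simulated data. Ratios with a side of 1 to 3 UMIs carry exact 95% intervals, and a group with no UMI was given a floor of 3 counts. Intervals cover counting error only.

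The members and all lists were chosen with earlier results of these data known. All members were named, and of the other pathway genes up to 3 per class and contrast that were called and reached 20 CPM, by absolute log2 fold change. Not every gene so chosen is reported here. DESeq2 1.42.0, other filters and scalings, other cell selections and leaving out each library were alternatives. Samples were grouped by their labels. The replicate labels of UIR and UUO were not treated as pairs: same-labelled libraries correlated over 0.1 in every pair in 1 of 9 classes (-0.071 to 0.585). The unnumbered UIR and UUO libraries, however, correlated at 0.197 to 0.585 in all of these classes but PT (-0.002). Libraries labelled 1 or 2 correlated at -0.071 to 0.514. The main fits treated all libraries as independent, and what the unnumbered libraries share was not tested.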

Additional observations from a re-analysis of the deposited data

Results flagged for a closer look

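UUO and UIR differed, by the test of the difference itself, in 9 values. In peritubular capillary endothelium the log2 difference of Bmp4 was 1.34, and in stroma it was 1.19. In intercalated cells Id1 had a difference of 1.04 and Bmp7 one of -1.88. Id2 in glomerular endothelium had a difference of -1.01. Within fibroblast subtypes the differences were 2.16 for Bmp2, 1.24 for Bmpr1b and 0.83 for Bmp4 in Fibro 1, and 0.97 for Id3 in Fibro 2.

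Control library N1 stood apart for Bmp7 in the distal tubule, at 16.41 CPM beside a group median of 23.44. It was the only one of 42 gene and class pairs to do so. Chance flags about 1 in 20 groups.

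Podocytes entered no comparison. Their Bmp7 level was 95.1 to 122 CPM in the UUO libraries, above the highest control at 84.57 CPM. The UIR libraries, at 65.52 to 87.38 CPM, overlapped the controls.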

How the results depend on the processing

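Of 56 calls of members over all classes and fibroblast subtypes, 30 were kept under every alternative that could be fitted, and none was reversed. The 23 calls of UIR against control became 12 with a mitochondrial limit of 15% (31 tests), 12 with 50 or more cells per pool (41 tests) and 10 without cells holding markers of another compartment (38 tests), and 17 to 24 without single libraries. The 24 calls of UUO against control became 14 with 50 or more cells (27 tests) and 11 without the marker-bearing cells (32 tests), and 21 to 28 without single libraries. The 5 calls of UUO against UIR became 12 with no filter on low counts (87 tests), 3 without the controls N1 and N2, 3 at the 15% limit, 3 with 50 or more cells, 2 with free RNA subtracted and 1 without the marker-bearing cells. They were 3 with library sizes alone in place of TMM, an alternative chosen after seeing the data, and 3 to 5 without single libraries. Where a setting left fewer tests, fewer calls could be made, and for the others the cause was not tested. Where a group was left with 1 pool, it was assumed to vary like the rest.

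With the replicate label as a replicate block, UUO against UIR gave 7 calls, 4 of them shared with the 5, and over all genes 1845 calls in place of 866. The block added calls of Sostdc1 in frTEC (-2.24, adjusted p = 0.0041), Id3 in intercalated cells (0.49, 0.017) and Bmpr1b in stroma (1.19, 0.029). The number of cells limits control stroma and frTEC, with 3 pools each, and principal cells of UUO, with 1 pool, since the other libraries held under 20 cells of the class. It also limits PT of UUO, with 35 to 53 cells per pool.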
